A study of Mus musculus with 9 samples.

Results

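The 10 genes described here, of the contractile and mesenchymal cytoskeleton, were followed over 9 lines of mouse embryonic stem cells (mESC), self-renewing cells derived from the blastocyst. The members were Acta2, Actg2, Tagln, Cnn1, Myl9, Tpm1, Tpm2, Tnnc1, Vim and Fn1, and each was found as 1 row of the value table whose annotation gave that symbol alone, so that 10 of 23410 tested transcript clusters (probe groups of the array that stand for 1 gene each, where the annotation is clear) were members. They were chosen by measured values of these same data, since earlier results had set Acta2, Tnnc1, Fn1 and Vim apart in mESCWM, so the differences of mESCWM from the other groups are given below as a description, without a test. All lines were C57BL/6, labelled female, and measured once each on Affymetrix MoGene 1.0 ST arrays at the eighth passage, after the mouse embryonic fibroblasts (MEF, feeder cells) of the early passages had been replaced by gelatin. Group mESCFB held 3 lines from blastocysts conceived by natural mating and flushed from the uterus (FB1 to FB3). Group mESCKAA held 3 lines from blastocysts conceived by IVF and grown in KSOM with amino acids under 5% O2, called optimal in the labels (KAA1 to KAA3). Group mESCWM held 3 lines from IVF blastocysts grown in Whitten's medium under 20% O2, called suboptimal (WM1 to WM3). The females that gave the embryos, the controls included, had been superovulated, and once derivation began every line was handled in the same medium, which contained leukemia inhibitory factor and 2i inhibitors. Each line came from a single blastocyst, so a group shows the spread between 3 embryos. The question was whether the conditions of the embryo before derivation leave a trace in the cells.

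Levels are log2 array values normalized between arrays by the authors, so a difference of 1 is a doubling. They measure the mean of a culture, and in such bulk samples more cells of a type and more RNA per cell cannot be told apart. The pluripotency marker Pou5f1 lay between 10.07 and 10.43 in all lines, and the median of the tested clusters between 4.64 and 4.70. Lines FB1, KAA2 and WM3 stood apart from their label for sex. The Y-linked gene Eif2s3y was 4.78, 3.72 and 5.19 there against 1.77 to 2.20 in the other 6 lines, and the Y-linked gene Uty was 2.63 to 4.42 there against 1.77 to 2.11. FB1 and KAA1 had the highest levels of primitive endoderm markers, described below. Differences without the lines with Eif2s3y signal are given below where they moved by over 1.5 times or changed sign. Several differences without FB1 and KAA1 are given too.

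Smooth muscle cells and myofibroblasts contract by sliding myosin along actin filaments. In smooth muscle, myosin is switched on by phosphorylation of its regulatory light chain, and calponins and tropomyosins on the thin filament tune the force, whereas striated muscle is switched on through the troponin complex. Many of these genes share a DNA element, the CArG box, that is bound by serum response factor (SRF) with its MRTF partners when actin is assembled, and TEAD factors, the partners of YAP and TAZ, act on several of the same genes in spread cells. In early embryos and stem cell cultures the same genes are used in cells that flatten, spread or differentiate, and their presence does not by itself mark muscle.

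Sequences before the start sites are shown for members with a match to an element these factors are known to bind. Cnn1, which had none, is shown beside Myl9. The sequences are from RefSeq on GRCm38.p6. Its promoter table (250 bases before to 50 bases after each start) held 7 of the 10 members, all but Actg2, Tagln and Fn1. Sequences run 5′ to 3′ on the strand named. Capitals mark a CArG box, a near CArG box with 1 other base allowed in its middle, or a TEAD site (CATTCC, read as GGAATG here). For Acta2 and Tpm1, whose matches lie inside the gene as annotated from its outermost start, 10 bases are given on each side of the match.
Myl9, chr2:156775214-156775407, plus strand: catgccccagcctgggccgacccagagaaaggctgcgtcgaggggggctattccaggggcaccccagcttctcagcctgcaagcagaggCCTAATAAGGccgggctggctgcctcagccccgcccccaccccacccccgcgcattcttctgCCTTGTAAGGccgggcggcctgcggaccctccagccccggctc
Cnn1, chr9:22099003-22099220, plus strand: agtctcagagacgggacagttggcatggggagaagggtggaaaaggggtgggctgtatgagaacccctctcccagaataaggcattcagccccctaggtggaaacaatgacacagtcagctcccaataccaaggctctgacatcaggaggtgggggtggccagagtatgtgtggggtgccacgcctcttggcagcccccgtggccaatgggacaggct
Tnnc1, chr14:31208062-31208311, plus strand: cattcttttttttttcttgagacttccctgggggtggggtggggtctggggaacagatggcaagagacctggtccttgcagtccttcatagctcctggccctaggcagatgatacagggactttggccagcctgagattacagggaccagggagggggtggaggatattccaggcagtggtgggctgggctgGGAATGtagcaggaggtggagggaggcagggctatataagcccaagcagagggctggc
Acta2, near CArG box at chr19:34255448-34255457, minus strand: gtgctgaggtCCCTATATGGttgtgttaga
Acta2, near CArG box at chr19:34255398-34255407, minus strand: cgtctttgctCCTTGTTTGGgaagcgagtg
Acta2, TEAD site at chr19:34255514-34255519, minus strand: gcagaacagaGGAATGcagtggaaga
Tpm1, TEAD site at chr9:67049264-67049269, minus strand: gctgtcctaaGGAATGcggtcgcccc

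A CArG box was found in 1 of the 7 members, Myl9, with CCTAATAAGG starting 161 bases before the start site, and in 1.63% of all 32851 windows of the table. With 1 other base allowed in the middle, an alternative added after the data were seen, 2 of 7 members had a match, Myl9 with CCTAATAAGG and CCTTGTAAGG and Acta2 with CCCTATATGG and CCTTGTTTGG, and 9.98% of all windows had one. The 2 elements of Acta2 began 84 and 34 bases before the start site. The TEAD site was found in Tnnc1, Tpm1 and Acta2, 3 of 7 members, and in 14.7% of all windows. The AP-1 site TGANTCA was in 0 of 7 members and in 7.81% of windows. Both strands were searched for all motifs, and the CArG box and its looser form overlap by construction. Matches are descriptions of the letters in these windows only, and Cnn1, shown for comparison with Myl9, had none of them. Tpm2 and Vim, whose windows are not printed, had none either.

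Acta2 encodes smooth muscle alpha-actin, the actin of contractile smooth muscle and myofibroblasts. Its level was 7.87 in FB1, 8.31 in FB2 and 8.56 in FB3, then 8.56 in KAA1, 8.88 in KAA2 and 8.67 in KAA3, and 8.87 in WM1, 9.82 in WM2 and 9.34 in WM3. All mESCKAA lines were above all mESCFB lines, though FB3 and KAA1 were equal after rounding, and all mESCWM lines were above all mESCFB lines, while WM1 was just below KAA2. The group means were 8.25 ± 0.35, 8.71 ± 0.16 and 9.34 ± 0.47 (SD, n = 3 each). The difference of mESCKAA from mESCFB was 0.46 ± 0.25 (SE) with a limma adjusted p of 0.918, and that of mESCWM from mESCFB was 1.10 ± 0.25, a 2.14-fold difference. Without the lines with Eif2s3y signal, the mESCWM difference was 0.91 and that of mESCKAA 0.18. Actg2, the enteric smooth muscle gamma-actin, was the one member with a mean level, 4.38, under the median of the tested clusters, 4.67. It ranged from 3.85 in FB2 to 4.55 in KAA2, and its groups overlapped in every comparison. Its difference of mESCWM from mESCFB, 0.21 ± 0.15, was 0.021 without FB2 and 0.34 without FB3.

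**Figure D1:**
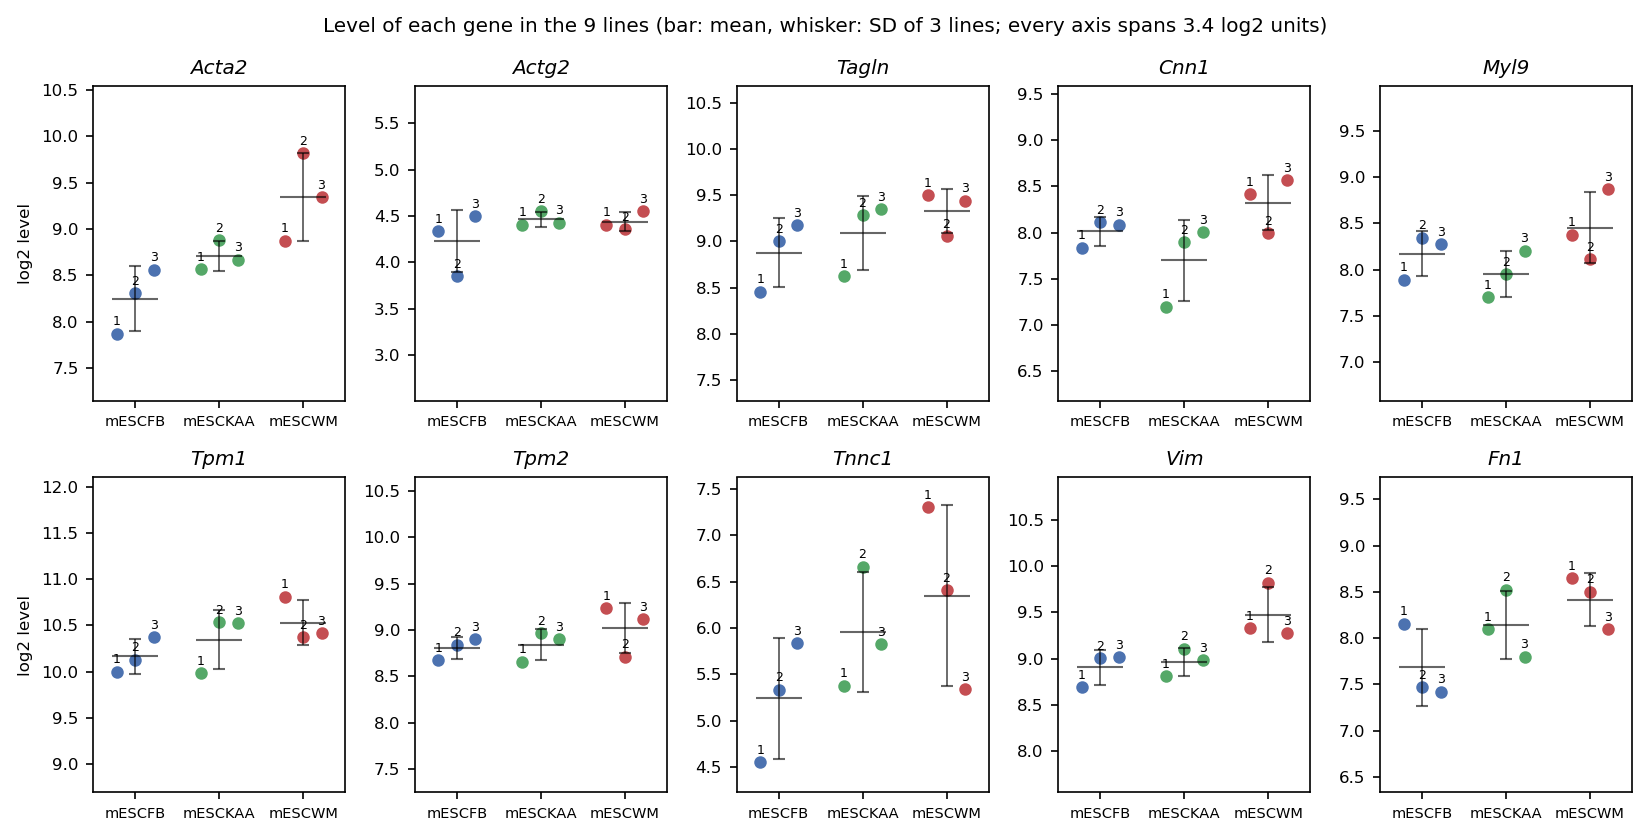
Log2 level of each of the 10 genes in the 3 lines of each group, numbered 1 to 3, with the group mean as a bar and the SD of the 3 lines as whiskers. Every vertical axis spans the same number of log2 units, so that the height of a panel compares the spread of the genes. Acta2 and Vim are higher in all mESCWM lines than in all mESCFB lines, and Tnnc1 has the widest spread, from 4.55 in FB1 to 7.30 in WM1.

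Tagln and Cnn1 belong to the calponin family of actin-binding proteins. Tagln, also known as SM22 alpha, was 8.46, 9.01 and 9.18 in FB1, FB2 and FB3, 8.63, 9.29 and 9.35 in KAA1, KAA2 and KAA3, and 9.50, 9.06 and 9.44 in WM1, WM2 and WM3. Cnn1, calponin of smooth muscle, was 7.84, 8.11 and 8.08 in the mESCFB lines, 7.20, 7.90 and 8.01 in the mESCKAA lines, and 8.41, 7.99 and 8.56 in the mESCWM lines. In both genes FB1 and KAA1 were the lowest lines and the groups overlapped. Tagln was higher by 0.21 ± 0.24 (SE) in mESCKAA and by 0.45 ± 0.24 in mESCWM than in mESCFB. Cnn1 differed by -0.31 ± 0.22 in mESCKAA and 0.31 ± 0.22 in mESCWM, and the difference between the IVF groups was 0.62 ± 0.22. KAA1 carried much of the lower mean of Cnn1, since the mESCKAA difference was -0.059 without it, and that between the IVF groups 0.37. The difference of mESCWM from mESCFB was 0.24 without FB1 for Tagln, and for Cnn1 0.19 without WM3 and 0.48 without WM2. Without the lines with Eif2s3y signal it was 0.19 for Tagln and 0.10 for Cnn1, and Tagln was then -0.10 and Cnn1 -0.50 in mESCKAA against mESCFB.

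Myl9 encodes the regulatory myosin light chain of smooth muscle, the target of myosin light chain kinase. It was 7.89, 8.35 and 8.27 in FB1, FB2 and FB3, 7.70, 7.96 and 8.21 in KAA1, KAA2 and KAA3, and 8.38, 8.12 and 8.87 in WM1, WM2 and WM3, so WM3 was the highest line and WM2 fell among the mESCFB lines. Its difference of mESCWM from mESCFB, 0.28 ± 0.21, was 0.077 without WM3, 0.14 without FB1, 0.45 without WM2 and -0.062 without the lines with Eif2s3y signal. The tropomyosins run along the actin filament and set which proteins can bind to it. Tpm1 was 10.002, 10.13 and 10.37 in FB1, FB2 and FB3, 9.99, 10.53 and 10.53 in KAA1, KAA2 and KAA3, and 10.81, 10.37 and 10.41 in WM1, WM2 and WM3. Tpm2 had the smallest range of all members, from 8.66 in KAA1 to 9.23 in WM1. Both tropomyosins were thus lowest in KAA1 and highest in WM1, and their groups overlapped, with mESCWM higher than mESCFB by 0.36 ± 0.18 for Tpm1 and 0.21 ± 0.15 for Tpm2. Without WM1 these were 0.22 and 0.11, Tpm2 was 0.37 without WM2, and without the lines with Eif2s3y signal they were 0.34 and 0.10.

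Tnnc1 encodes the calcium-binding troponin subunit of slow skeletal and cardiac muscle. It was 4.55, 5.33 and 5.83 in FB1, FB2 and FB3, 5.38, 6.66 and 5.83 in KAA1, KAA2 and KAA3, and 7.30, 6.41 and 5.34 in WM1, WM2 and WM3. WM3 thus lay among the mESCFB lines, and the mean difference of mESCWM from mESCFB, 1.11 ± 0.53, rested on WM1 and WM2, and was 0.64 without WM1. Between the IVF groups it was 0.39 ± 0.53, but -0.081 without WM1, 0.11 without KAA1, 0.75 without KAA2, 0.90 without WM3 and 1.25 without the lines with Eif2s3y signal. Its difference of mESCKAA from mESCFB, 0.72 ± 0.53, was 0.018 without those lines. In a list of 17 troponin and striated muscle genes, 8 had a mean at or above the median of the tested clusters. The median difference of mESCWM from mESCFB was 0.022. In that comparison 0 of 17 had groups apart, beside 3.58% of all clusters apart and higher and 4.55% apart and lower. Some of the 17 genes also varied widely between lines. Nppb, a natriuretic peptide of heart muscle, ran from 4.65 in WM1 to 7.03 in FB2. Myl7, an atrial myosin light chain, ran from 4.80 in FB3 to 6.40 in WM2.

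Vim encodes vimentin, the intermediate filament of mesenchymal cells. It was 8.69, 9.01 and 9.02 in FB1, FB2 and FB3, 8.81, 9.11 and 8.98 in KAA1, KAA2 and KAA3, and 9.33, 9.82 and 9.28 in WM1, WM2 and WM3. All 3 mESCWM lines were above all 6 other lines, with a difference of 0.57 ± 0.16 from mESCFB and 0.51 ± 0.16 from mESCKAA, whereas mESCKAA and mESCFB were 0.061 ± 0.16 apart. Fn1 encodes fibronectin, a matrix protein that cells grip through integrins. It was 8.16, 7.47 and 7.42 in FB1, FB2 and FB3, 8.10, 8.52 and 7.80 in KAA1, KAA2 and KAA3, and 8.65, 8.50 and 8.10 in WM1, WM2 and WM3. FB1, low for most other members, was the highest mESCFB line for Fn1 and overlapped with both IVF groups, and the IVF groups overlapped with each other. The difference of mESCWM from mESCFB was 0.73 ± 0.25, and 1.13 without the lines with Eif2s3y signal.

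No member passed the test of mESCKAA against mESCFB. With limma and Benjamini-Hochberg adjustment over all tested clusters, 0 of 10 passed at 0.05, where 0% of the 23410 clusters did. At an unadjusted p under 0.05 again 0 of 10 passed, with 4.81% of all clusters, and 0 of 10 passed the rank product, the test named in the methods of the study, with 0.128% of all clusters. The adjusted p ran from 0.918 to 0.986. The mean was higher in mESCKAA for 8 of 10 members, all but Cnn1 and Myl9, and the median difference was 0.19 beside 0.0067 over all tested clusters. Acta2 was the one member with groups apart, higher in mESCKAA, as were 4.38% of clusters, and 0 of 10 were apart and lower, with 3.7% of clusters. Without the lines with Eif2s3y signal, Myl9 differed by -0.36, Tpm1 by 0.0045, Tpm2 by -0.092 and Vim by -0.12. Without FB1 and KAA1, Fn1 differed by 0.72, Cnn1 by -0.15, Tpm1 by 0.28, Tpm2 by 0.063 and Vim by 0.033.

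Described without a test, the mean was higher in mESCWM than in mESCFB for 10 of 10 members, with a median difference of 0.41 beside 0.0046 over all tested clusters. Acta2 and Vim had groups apart and higher, 2 of 10, and 3.58% of all clusters did, while 0 of 10 were apart and lower, with 4.55% of clusters. Against mESCKAA, 9 of 10 members were higher in mESCWM, all but Actg2, with a median of 0.33 beside -0.0068 over all clusters. Vim was the one member with groups apart, higher, as were 4.03% of clusters, and 0 of 10 were lower, with 4.63% of clusters. Without the lines with Eif2s3y signal, this difference was 0.29 for Myl9 in place of 0.50, 0.33 for Tpm1 in place of 0.18, and 0.63 for Fn1 in place of 0.28. Without FB1 and KAA1, the median difference of mESCWM from mESCKAA was 0.18. The difference was then 0.015 for Tagln, 0.0019 for Tpm1, 0.085 for Tpm2, 0.11 for Tnnc1, 0.37 for Cnn1 and -0.053 for Actg2. The comparisons share their lines, and the choice of the members used the mESCWM lines, so nothing is read from these counts. Over all clusters, 0% passed limma's adjusted threshold in mESCWM against mESCFB and 0% in mESCWM against mESCKAA, with 5.89% and 6.29% at an unadjusted p under 0.05.

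The order of the lines differed between members. WM1 was above the mean of the 9 lines for 10 of 10 members, WM3 for 9, KAA2 for 7, FB3 for 6, WM2 and KAA3 for 5 each, FB2 and KAA1 for 2 each and FB1 for 1. WM1 held the highest level of 5 members (Tagln, Tpm1, Tpm2, Tnnc1 and Fn1), WM2 of Acta2 and Vim, WM3 of Cnn1 and Myl9, and KAA2 of Actg2. The lowest level was in FB1 for 4 members and in KAA1 for another 4. Different mESCWM lines thus led different genes, and WM2, highest for Acta2 and Vim, was the lowest mESCWM line for Tagln, Cnn1, Myl9, Tpm1, Tpm2 and Actg2.

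**Figure D2:**
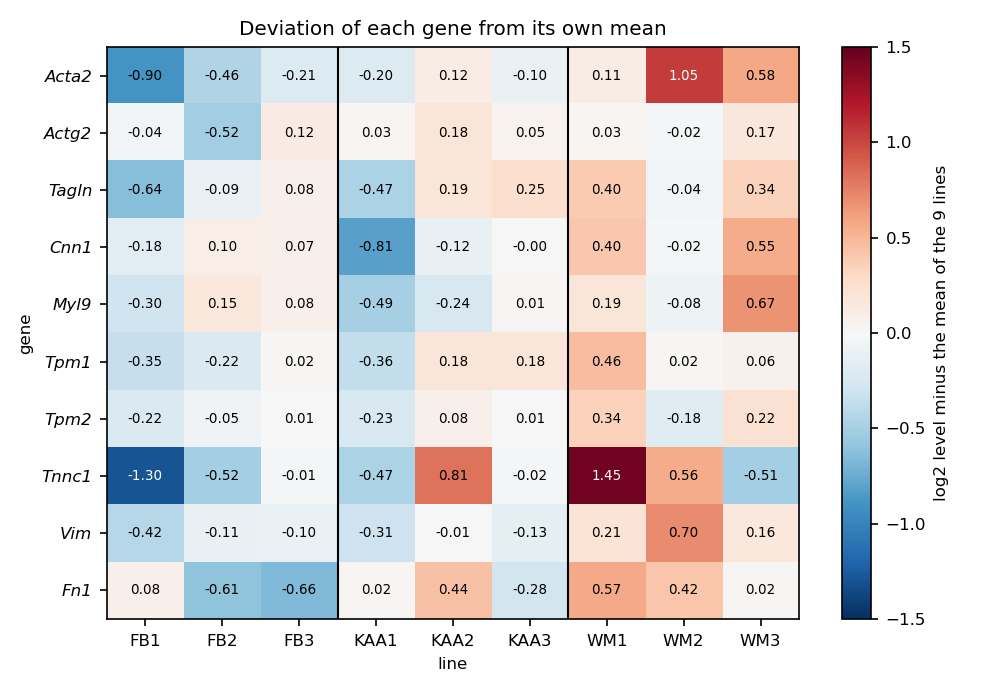
Log2 level of each gene in each line minus the mean of that gene over the 9 lines, with red above and blue below the mean and black lines between the groups. WM1 is above the mean for all 10 genes, WM2 is highest for Acta2 (1.05) and Vim (0.70), and FB1 and KAA1 are low for most genes.

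The members varied together in part. Over the 45 pairs of members, the median Pearson r across the 9 lines was 0.46, with a range from -0.17 to 0.92, and 44 pairs were above 0. After the mean of each group was removed, so that no difference between groups could add to it, the median was 0.15, with a range from -0.70 to 0.90, and 30 pairs were above 0. These correlations are descriptions over 9 arrays that share a normalization. Acta2, Tnnc1, Fn1 and Vim were chosen for their levels in mESCWM, which can itself raise r over the lines, so r is no test. Over all 10922 other clusters with 1 symbol and a mean at or above the median, the median r with the mean profile of the members was -0.053. That is another measure than r between single genes, for which no background was computed.

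Grouped after their values were seen, the members fell into a calponin and tropomyosin set, an Acta2 and Vim pair, and single genes. Tagln, Cnn1, Myl9, Tpm1 and Tpm2 had a median r of 0.77 over their 10 pairs (0.46 to 0.91), and 0.82 within groups (0.40 to 0.90). Cnn1 and Myl9 ranked the 9 lines in the same order, with r of 0.91 and Spearman's rho of 1, and r was 0.85 within groups and 0.87 without WM3 and KAA1, the lines farthest from the median of Cnn1. Tagln and Tpm1 had r of 0.91, rho of 0.91, and 0.82 without KAA1 and FB1. Tagln and Tpm2 had 0.87, and 0.89 without KAA1 and FB1. Some other pairs of the set leaned on few lines. Without KAA1 and FB1, r of Tagln was 0.41 with Myl9 in place of 0.71, and 0.60 with Cnn1 in place of 0.74. Without KAA1 and WM1, r of Tpm1 with Tpm2 was 0.62 in place of 0.84. Without KAA1 and WM3, r of Myl9 was 0.41 with Tpm1 and 0.56 with Tpm2. Acta2 followed Vim with r of 0.92, rho of 0.82 and 0.86 within groups, and 0.71 without FB1 and WM2. Within groups Acta2 had r of 0.20 to Tagln, -0.01 to Cnn1 and -0.29 to Tpm2. Over the 9 lines, with group means kept, its r was 0.55 with Tagln and 0.49 with Tpm1. Without FB1 and WM2 these were 0.63 and 0.49. Its r over the lines with Cnn1, Myl9 and Tpm2 was 0.34, 0.38 and 0.28. Without FB1 and WM2 these were 0.53, 0.56 and 0.67, so they leaned on few lines. Within-group r was not computed without these lines. Tnnc1 was closest to Tpm1, with r of 0.85, rho of 0.73 and 0.78 within groups. Fn1 stood apart, with r of -0.17 to Myl9 and -0.70 within groups, and Actg2 had no r above 0.42.

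**Figure D3:**
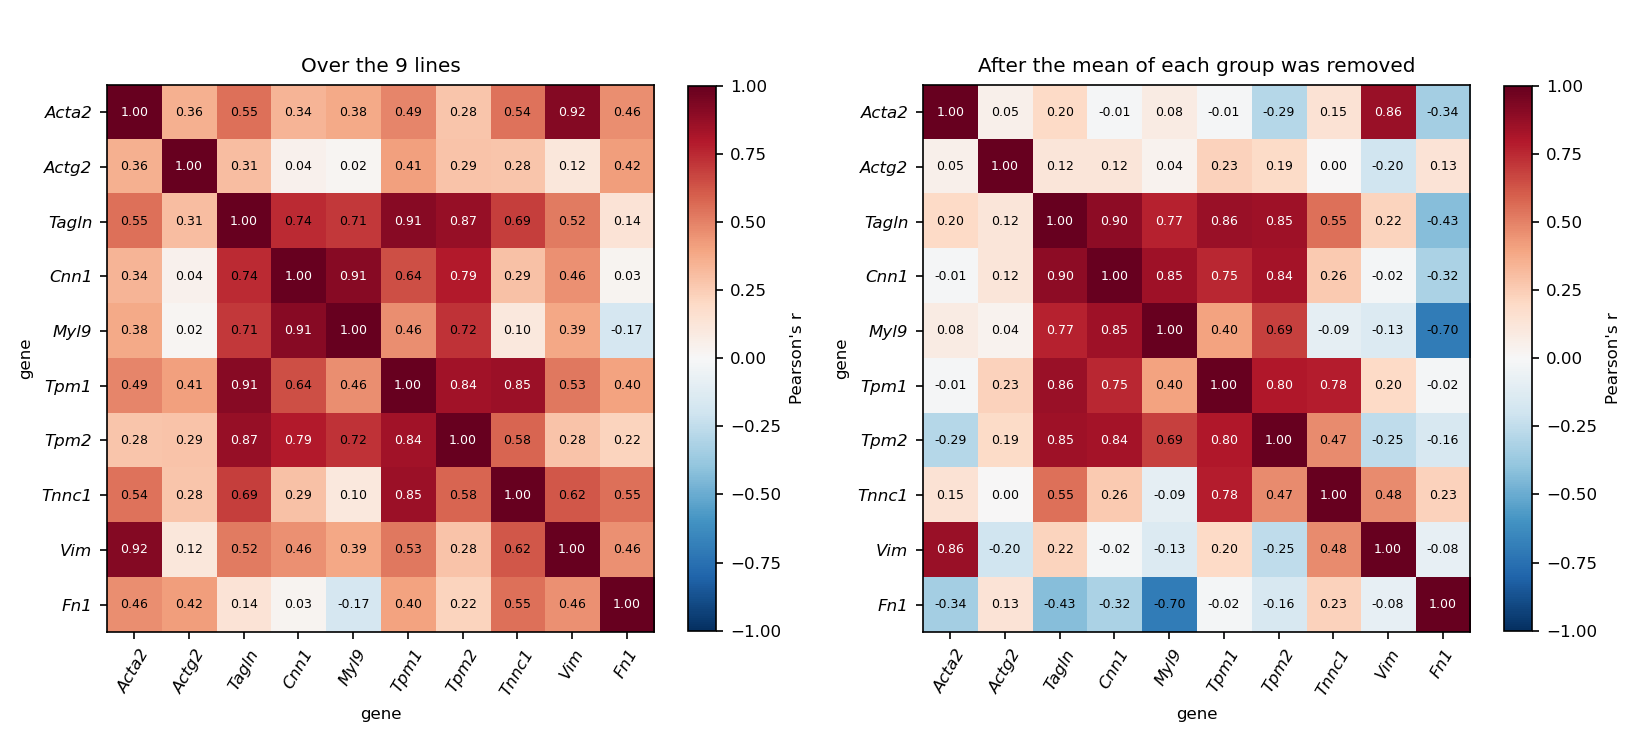
Pearson's r between each pair of the 10 genes over the 9 lines (left) and after the mean of each group was removed (right), from blue (-1) to red (1). The block of Tagln, Cnn1, Myl9, Tpm1 and Tpm2 and the pair of Acta2 and Vim keep their r within groups, while Fn1 is negative with Myl9 in both panels (-0.17 and -0.70).

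The members also differed in how they followed other genes. The mean of 32 other smooth muscle and actin-binding genes had r of 0.95 with Tpm2, 0.88 with Tpm1, 0.88 with Tagln and 0.71 with Cnn1, and within groups 0.95, 0.83, 0.83 and 0.76. Its r was 0.39 with Acta2 and 0.35 with Vim, and within groups -0.25 with each. Keratins followed Tagln and the tropomyosins. Krt8, a keratin of simple epithelia, had r of 0.93 with Tagln (rho 0.92, within groups 0.97, and 0.84 without KAA1 and FB1), 0.92 with Tpm1 and 0.80 with Tpm2. It had r of 0.52 with Cnn1 and 0.45 with Myl9, which were 0.11 and -0.080 without KAA1 and FB1, and 0.37 with Acta2 and 0.31 with Vim. Krt19 had r of 0.84 with Tagln, 0.90 with Tpm1 and 0.34 with Myl9. The mean of all 10 listed epithelial genes had lower r, 0.60 with Tagln, 0.76 with Tpm1 and 0.70 with Tpm2. Without KAA3 and WM1, the lines farthest from its median, these were 0.34, 0.47 and 0.51. EMT transcription factors and cadherins mark the loss of epithelial shape. Of 8 listed, 4 had a mean at or above the median of the tested clusters. The mean of the 8 moved little, from 4.45 in FB2 to 4.66 in KAA2. It had r of 0.80 with Fn1 (0.81 within groups), 0.74 with Tnnc1 (0.68 within groups), 0.52 with Tpm1 and 0.23 with Tagln. Without WM1 and KAA2, the lines farthest from its median, r was 0.71 with Fn1, 0.51 with Tnnc1, 0.12 with Tpm1 and -0.21 with Tagln.

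Markers of primitive endoderm, the extraembryonic layer that stem cell cultures can form, ran the other way to most members over the 9 lines. The mean over 14 markers was 6.46 in FB1 and 6.75 in KAA1 and 5.48 to 5.75 in the other 7 lines. Its r was -0.80 with Tagln, -0.78 with Cnn1 and -0.68 with Tpm1, and 0.20 with Fn1. These relations rest on FB1 and KAA1: without them r was 0.25 with Tagln, -0.11 with Cnn1 and 0.24 with Tpm1. For Acta2 it was then 0.72 in place of -0.35, and for Vim 0.48 in place of -0.50. Fn1 had 0.65 and Actg2 0.48 without these lines, and Myl9, Tpm2 and Tnnc1 had -0.12, -0.072 and 0.17. Lama1, a basement membrane laminin, was 6.95 and 7.32 in these lines and 4.43 to 5.07 in the others, and Gata6, a master regulator of the layer, 6.34 and 7.01 against 4.81 to 5.73. Without FB1 and KAA1 the median r between members was 0.35, and 0.091 within groups, and the median difference of mESCWM from mESCFB was 0.27. The part of these cells in the low levels was not tested.

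**Figure D4:**
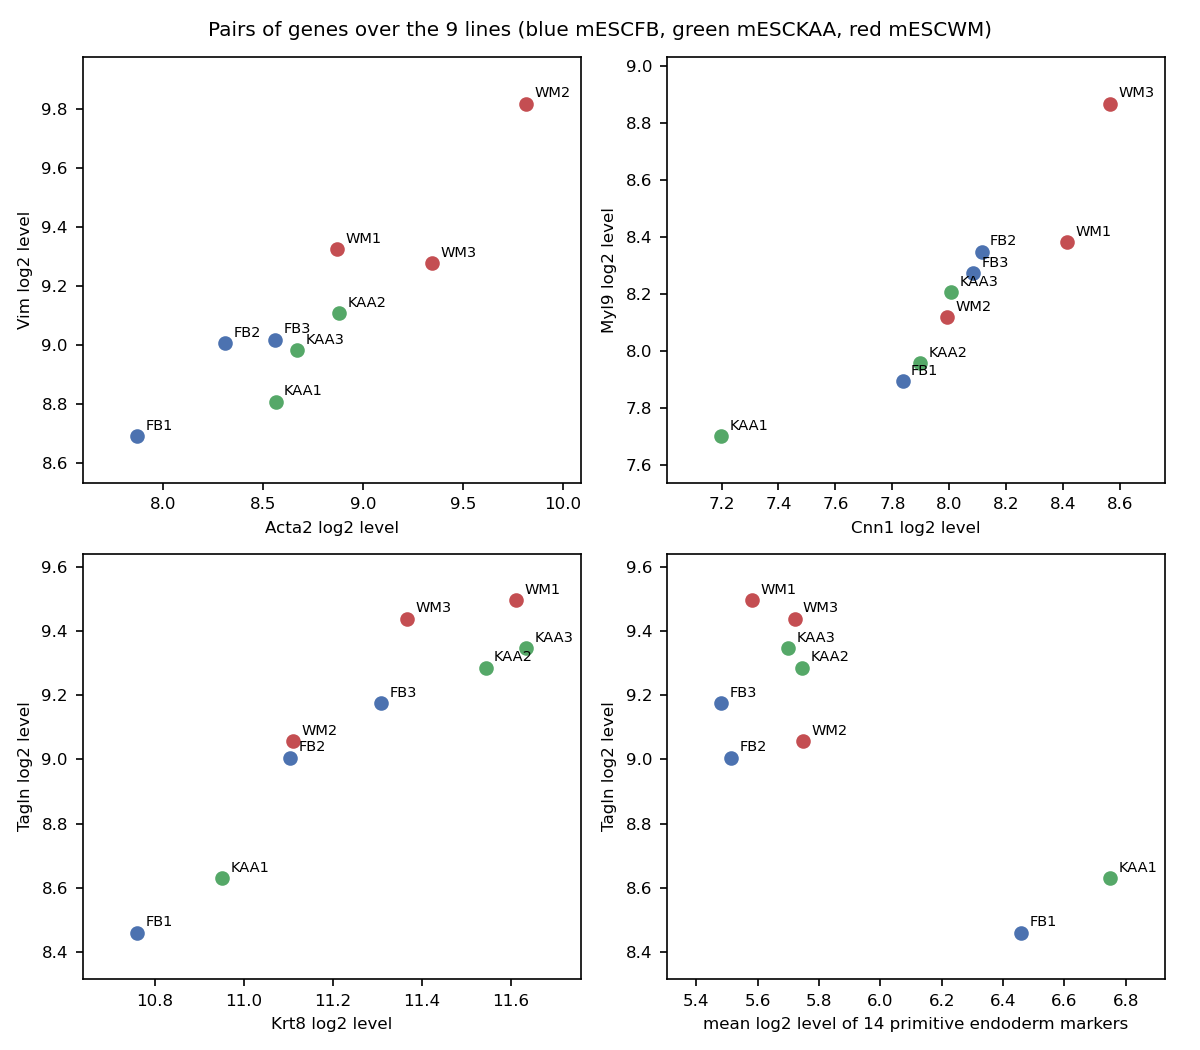
Log2 levels of 4 pairs over the 9 lines, coloured by group. Acta2 and Vim rise together with WM2 at the top, Cnn1 and Myl9 keep the same order of lines, Tagln follows Krt8, and Tagln is low in FB1 and KAA1, the lines with the highest mean of 14 primitive endoderm markers, with no such relation among the other 7.

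Feeder fibroblasts express Acta2, Vim, Tagln and Fn1. Of 24 of their markers, 23 were measured and 11 had a mean at or above the median of the tested clusters. The sum of the 23 on the linear scale was 692 to 761 in mESCFB, 699 to 824 in mESCKAA and 735 to 916 in mESCWM. The defining collagens were near or under the array median, with Col1a1 at 4.59 to 5.32, Col1a2 at 4.55 to 5.08 and Col3a1 at 4.34 to 4.71, and Dcn, Lum and Postn were at 3.52 or lower, while Thy1 was 5.71 to 6.62 and Fstl1 7.34 to 8.03. The mean of the list had r of 0.82 with Vim, 0.73 with Acta2, 0.82 with Tnnc1 and 0.78 with Fn1, and 0.01 with Myl9. Without WM1 and WM2, the lines with its highest means, r was 0.48 with Vim, 0.51 with Acta2, 0.80 with Tnnc1 and 0.65 with Fn1. Within groups r with these genes was 0.73, 0.35, 0.72 and 0.55. Within the list the matrix proteoglycan gene Bgn was 6.28 in WM1 and 6.22 in WM2, 5.23 in WM3 and 4.93 to 5.12 in the other lines. Their part in the levels of Acta2 and Vim was not tested.

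The other smooth muscle and actin-binding genes, a list set up for this description with results of these data known, were higher in mESCWM than in mESCFB in 23 of 32, with a median difference of 0.11. With limma 0 of 32 passed in either direction, 5 were higher at an unadjusted p under 0.05, where 5.89% of all clusters were in either direction, and 4 had groups apart and higher, as had 3.58% of all clusters. Acta1, skeletal alpha-actin, was 7.39, 7.89 and 8.09 in the mESCFB lines, 7.65, 8.18 and 8.00 in the mESCKAA lines and 8.59, 8.44 and 8.84 in the mESCWM lines, with all mESCWM lines above the rest. The difference from mESCFB was 0.83 ± 0.20 with a limma adjusted p of 0.736. Actc1, cardiac alpha-actin, differed by 0.82 ± 0.26 (limma adjusted p = 0.819) and the nonmuscle myosins Myh9 and Myh10 by 0.41 ± 0.16 and 0.43 ± 0.16. The coding sequences of Acta1, Acta2, Actc1 and Actg2 are closely related, and how far their probes share signal was not tested. Cytoplasmic beta-actin, Actb, stayed between 12.71 and 12.82. In mESCKAA against mESCFB, 22 of 32 were above 0 with a median of 0.061, with 0 at an unadjusted p under 0.05 and 2 with groups apart and higher, where 4.38% of all clusters were.

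**Figure D5:**
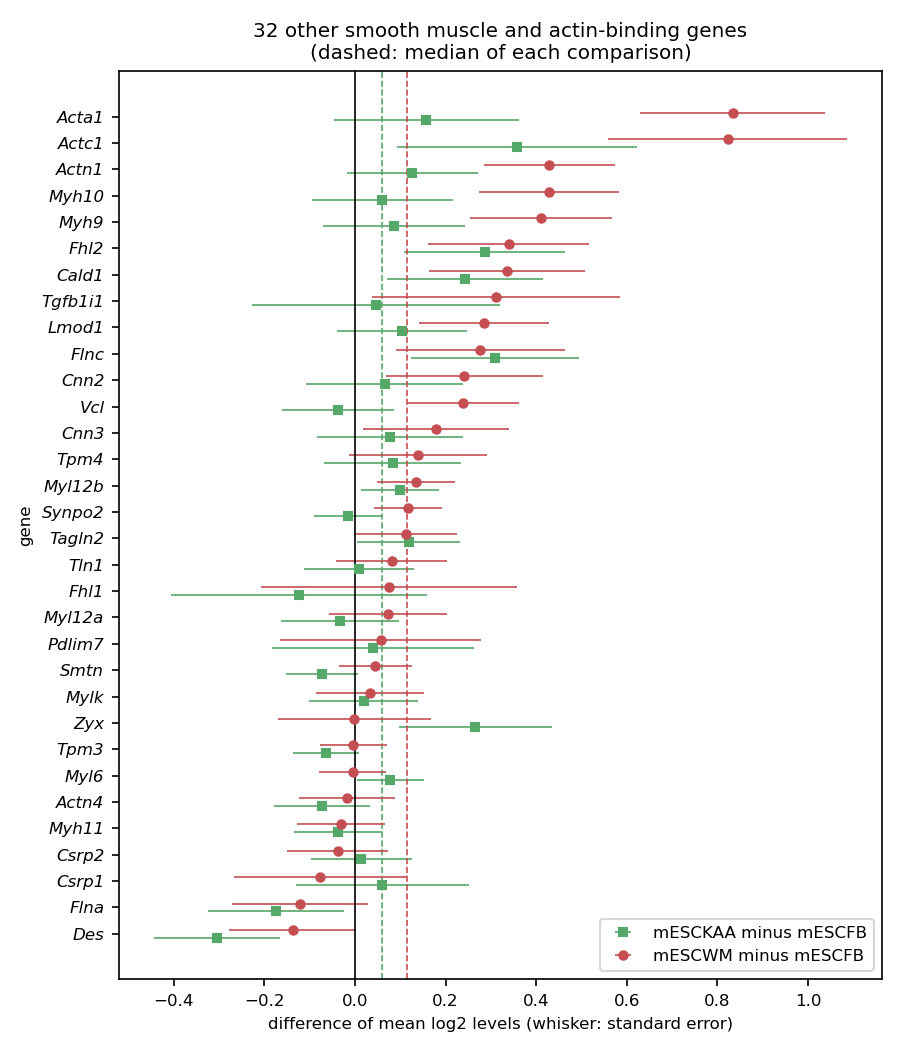
Difference of the mean log2 level from mESCFB for 32 other smooth muscle and actin-binding genes in mESCKAA (green squares) and mESCWM (red circles), with standard errors as whiskers and the median of each comparison dashed. Acta1 and Actc1 lie farthest to the right in mESCWM, at 0.83 and 0.82, none passed limma's threshold, and both comparisons share the mESCFB lines.

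The transcription factors and signals known to drive these genes were compared between mESCWM and mESCFB, and those named here did not pass limma's threshold. Srf was 7.38 to 8.13, with the lowest level in WM2, and differed by -0.18 ± 0.17 (limma adjusted p = 0.895). Mrtfa differed by 0.28 ± 0.13 (limma adjusted p = 0.819) and had all mESCWM lines above all mESCFB lines. Mrtfb went the other way, with a difference of -0.16 ± 0.14 (limma adjusted p = 0.880). Myocd, the muscle-specific partner of SRF, was at 3.22 or lower in all lines. The 11 measured genes of YAP, TAZ and TEAD with their targets had a median difference of 0.094. The 12 of the TGF-beta pathway, an inducer of Acta2 in fibroblasts, had 9 above 0 with a median of 0.19. Tgfb2, one of its ligands, was 4.75 to 4.83 in mESCFB, 4.56 to 5.16 in mESCKAA and 5.24 to 5.67 in mESCWM, a difference of 0.68 ± 0.17 from mESCFB (limma adjusted p = 0.743). Smad3, which carries its signal to the nucleus, differed by 0.61 ± 0.17 (limma adjusted p = 0.808), with all mESCWM lines above the rest. These were the 2 of 12 with groups apart and higher, where 3.58% of all clusters were. Tgfb1 differed by 0.29 ± 0.19 (limma adjusted p = 0.840) and Skil by -0.12 ± 0.23 (limma adjusted p = 0.959). In both of these the groups overlapped. Of the 14 fibronectin receptors and matrix partners, 13 were above 0 with a median of 0.25, and 0 had groups apart and higher. Sdc4, a syndecan, was apart and lower, 1 of 14, where 4.55% of all clusters were. It was also the 1 gene lower at an unadjusted p under 0.05, where 5.89% of all clusters passed in either direction. In mESCWM against mESCFB, 8 of 10 epithelial genes were above 0 with a median of 0.078, as were 4 of 10 mesoderm and cardiac progenitor markers with -0.039, 4 of 12 pluripotency markers with -0.13, 5 of 14 primitive endoderm markers with -0.081 and 19 of 23 feeder markers with 0.12. Of the 176 list genes measured, 0 passed limma's adjusted threshold in any comparison, and 1 were under an unadjusted p of 0.05 in mESCKAA against mESCFB, 15 in mESCWM against mESCFB and 15 in mESCWM against mESCKAA, beside 4.81%, 5.89% and 6.29% of all clusters.

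Among the 10922 other clusters with 1 symbol and a mean at or above the median, the one most like the mean profile of the members was Acta1, with r of 0.94 and 0.85 within groups. It was followed by Vat1 and Axl, a receptor tyrosine kinase, each with r of 0.94, Fosl2, an AP-1 subunit, with 0.93, Rere with 0.93 and Limk2, a kinase that stabilizes actin filaments, with 0.93. In all, 12 clusters reached r of 0.9. Those most like Acta2 were Brd1 with r of 0.97, rho of 0.92 and 0.95 within groups, Prrx2 with 0.92, Tom1 with 0.91 and 0.90 in its 2 clusters, and Ppp1r12b, a regulatory subunit of myosin phosphatase, with 0.91. The range of Brd1 over the lines was 0.45 and that of Tom1 0.19, against 1.95 for Acta2, and without FB1 and WM2 the r of Brd1 was 0.90 and that of Ppp1r12b 0.60.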

How the data were processed

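The authors hybridized RNA of 9 lines to Affymetrix MoGene 1.0 ST arrays, 1 array per line. Per the labels they used Affymetrix Expression Console and R 3.1.0, and their methods name RMA, so the deposited values are log2 levels that are background-corrected and normalized between arrays. Of 35556 clusters, 12146 have no gene and 23410 were tested. RMA can give several arrays the same level of a cluster, as in 62.3% of tested clusters and 3 of 10 members, so small differences between lines carry little weight. The number of arrays limits the precision.

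Members and gene lists were chosen with earlier results of these data known. For differences, lmFit and eBayes of limma 3.58.1 (R 4.3.3) took 1 mean per group over all 9 lines, two-sided, and calls were made at 0.05 after Benjamini-Hochberg adjustment. The rank product used 100 permutations within arrays. Within-group r used deviations from group means. Genes named are the members, the 10 most like Acta2 and the 10 most like the mean profile of the members, some of which are not printed, up to 4 genes with the largest SD per list, and fixed markers and regulators. Uty, Col3a1, Dcn, Lum, Postn, Fstl1, Sdc4, Myh9 and Myh10 fall outside this rule and were chosen after their values were seen. Of 186 listed entries, 177 were found. The counts of 1 list are not reported here. Plots used matplotlib 3.10.9, and tables pandas 2.3.3 and numpy 2.4.6 on Python 3.11.15. The fit was tested on simulated data. The study's qPCR and growth data were not used here.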

Additional observations from a re-analysis of the deposited data

How the results depend on the processing

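In 17 alternative limma fits of mESCKAA against mESCFB (quantile normalization, median centring, all clusters, clusters at or above the median level, a robust fit with a trend, the replicate number as a block, each line left out, and sets of lines left out), 0 members passed, with a lowest adjusted p of 0.728, and 0 passed the rank product. Every gene had 1 row, so the mean of several rows could not be tried. The sign of 3 small differences turned: with each line left out, Tagln ran from -0.0040 (without FB1) to 0.44, Tpm2 from -0.029 (without FB1; -0.026 without KAA2) to 0.13 and Vim from -0.046 (without FB1; -0.0097 without KAA2) to 0.14, and without FB1, KAA2 and WM3 they were -0.10, -0.092 and -0.12. The cause was not tested. The median difference of mESCWM from mESCFB ran from 0.27 to 0.53 with a line left out, and that from mESCKAA from 0.16 (without WM1) to 0.48. The median r between members ran from 0.39 to 0.61, and within groups from 0.027 to 0.48. It was 0.43, and 0.0022 within groups, without FB1, KAA2 and WM3. Spearman's rho gave a median of 0.55. Deviations of same-numbered lines had r of -0.013 to 0.33, over 0.1 in 5 of 9 pairs, and those of other-numbered lines -0.24 to 0.13. Of the 9 lines, 8 correlated best with a line of their own number. The main fit did not pair the lines by number, so an effect shared by number would remain in its results. With the replicate block 0 members passed and the median r within groups was 0.21. Omitting FB1 and KAA1 together was chosen after seeing the data. With 3 arrays a group, differences of the size seen here between mESCKAA and mESCFB cannot be separated from the spread between lines.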
